A study of Rattus norvegicus with 24 samples.

Results

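Of 1561 array probes with a value, 4 represent the genes described here, 1 each for Dnase1 (probe 46), Pcsk6 (probe 1925), Alcam (probe 1782) and Tmbim6 (probe 2465). They were chosen from these same data as tubule genes with a lower ratio in salt-loaded SS rats and not in the other conditions, so their log ratios in the 4 comparisons are a description and carry no test. Each gene is listed at 2 probe IDs and had values at 1 of them. Pcsk6, Dnase1, Alcam and Tmbim6 lie on chromosomes 1, 10, 11 and 7, and none lies on chromosome 13.

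Kidney RNA of SS rats, a salt-sensitive strain, and of strain 13 was compared on 24 two-colour cDNA arrays after 2 weeks on low salt (LS) or high salt (HS). Strain 13 is known as the SS rat with chromosome 13 of another strain in place of its own, so that both strains share the rest of the SS background. The labels spell the diets LS and HS, and the reading as salt levels, like the renal medulla as the tissue, comes from the study's title and what is known of it. The 4 comparisons are HS over LS in SS, HS over LS in strain 13, strain 13 over SS on LS and strain 13 over SS on HS. Each has 3 RNA pairs, hybridised on a forward array and on a second array with the dyes exchanged. The labels give no age, sex or number of animals, nor whether RNA pairs came from separate animals, so the SD and the tests cover the spread of these hybridised samples, part of which may be technical. Values are deposited log ratios of unstated base, so no fold is given and levels of different genes cannot be compared. Ratios are read as HS relative to LS and as strain 13 relative to SS, which is probable from the channels named in some titles but not stated, and a mistake here would turn all signs together.

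Dnase1 encodes a secreted endonuclease that cuts DNA and is known as a major nuclease of kidney tubules. Pcsk6, also called PACE4, encodes a convertase of the secretory pathway that cleaves inactive precursors of growth factors and enzymes, among them corin, which in turn processes a precursor of natriuretic peptide. Alcam encodes an adhesion molecule of the immunoglobulin family that binds itself and the leukocyte receptor CD6. Tmbim6, also called Bax inhibitor 1, encodes a membrane protein of the endoplasmic reticulum that restrains cell death and affects calcium stored there. The arrays measured whole tissue, so they cannot show in which tubule segment a transcript lies, and fewer cells of a type cannot be told apart from less RNA per cell.

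The values divided the 4 genes. Dnase1 and Pcsk6 were lower on HS in SS and higher in strain 13 than in SS on HS, on every array of either dye orientation. Alcam had smaller ratios of the same signs once both orientations were averaged. Tmbim6 was below 0 on average in all 4 comparisons, and its low value in SS came mainly from RNA pairs measured in 1 orientation, so the description as falling in salt-loaded SS alone did not hold for it.

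The upstream sequences of Dnase1, Pcsk6 and Alcam are shown because the diet pairs of SS did not overlap with those of strain 13, nor the strain pairs on LS with those on HS, a pattern for which they were chosen. Each holds the 250 bases before the RefSeq start in build GRCr8, 5′ to 3′ on the gene's strand, chr10:12008245-12008494 (minus strand) for Dnase1, chr1:128839492-128839741 (plus strand) for Pcsk6 and chr11:61805207-61805456 (plus strand) for Alcam, with motif matches in capitals.
Dnase1: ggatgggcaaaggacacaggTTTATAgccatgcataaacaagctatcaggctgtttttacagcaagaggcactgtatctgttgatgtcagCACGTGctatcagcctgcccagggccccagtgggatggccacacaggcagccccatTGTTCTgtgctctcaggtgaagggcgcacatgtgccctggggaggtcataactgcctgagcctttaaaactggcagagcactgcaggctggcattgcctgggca
Pcsk6: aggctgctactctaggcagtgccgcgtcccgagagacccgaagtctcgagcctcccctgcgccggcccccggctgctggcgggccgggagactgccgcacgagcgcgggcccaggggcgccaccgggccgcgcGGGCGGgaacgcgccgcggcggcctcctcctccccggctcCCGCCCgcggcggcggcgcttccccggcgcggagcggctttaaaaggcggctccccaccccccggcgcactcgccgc
Alcam: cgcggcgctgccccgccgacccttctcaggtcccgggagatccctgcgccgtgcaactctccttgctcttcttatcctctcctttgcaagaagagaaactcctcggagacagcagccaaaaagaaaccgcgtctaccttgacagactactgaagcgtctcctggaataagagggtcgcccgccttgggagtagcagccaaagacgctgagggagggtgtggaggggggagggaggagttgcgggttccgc
Promoters were found for all 4 genes. Short motifs were searched on both strands of these windows and of 33469 rat promoters. The TATA box, searched as TATAAA, was in 12.9% of all promoters, and the GC box, searched as GGGCGG, in 30.5%. The E-box CACGTG was in 5.59%, and the letters CCAAT of the box named after them in 34.0%. A half-site of the glucocorticoid receptor, TGTTCT, was in 17.5%, and the core letters of NFAT sites, TGGAAA, in 19.7%. None of the matches reported here overlapped another. Dnase1 held TATAAA on the reverse strand at -230, CACGTG at -160 and TGTTCT at -104 from the start. Pcsk6 held GGGCGG at -117 and, on the reverse strand, at -77. Alcam held none of the 6, which says only that these letters are not in its window. Tmbim6, not printed, held 3 matches to CCAAT and 3 to GGGCGG. The GC content was 55.2% for Dnase1, 80.4% for Pcsk6, 60.8% for Alcam and 58.8% for Tmbim6, against a median of 51.2% over all promoters. CpG dinucleotides numbered 2 in Dnase1 and 41 in Pcsk6, against a median of 5. Since Alcam held none of the 6, no motif could be common to the 3 printed sequences. Whether these sequences bear on the ratios was not tested.

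Each array of the series gave values for 726 to 1402 probes (median 1202.5), and the 6 arrays of the SS diet comparison include 1 whose title opens like those of strain 13. That array, the dye swap of replicate 3, was placed by its channel text, and 5 further SS diet titles give no strain. In limma fits over all probes, 37 of 1310 were called in the SS diet comparison (24 higher, 13 lower) and 81 of 1350 in the strain comparison on HS (49 higher, 32 lower, or 10 and 3 with arrays scaled to equal spread). A block for the replicate number left 40 calls on HS (30 higher, 10 lower). Neither the strain 13 diet comparison (1287 probes) nor the strain comparison on LS (1229 probes) had a call, with 119 and 268 probes at an unadjusted p below 0.05. The SS count was 0 without replicate 2 or without replicate 3 and 57 without replicate 1, and the HS count was 0, 12 and 19 without replicates 1, 2 and 3.

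Dnase1 had log ratios of -0.415, -0.59 and -0.54 in the 3 RNA pairs of SS on HS against LS. All 6 arrays were below 0, between -0.74 and -0.41, and the mean was -0.515 ± 0.09 (SD, n = 3). In strain 13 the same diets gave 0.385, -0.005 and -0.22. These pairs straddled 0, with a mean of 0.05 ± 0.31 (SD, n = 3), and did not overlap with those of SS. Without the SS array whose title conflicts, the SS mean was -0.50.

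Between the strains, Dnase1 had 0.29, 0.005 and 0.18 on LS. On HS it had 1.02, 0.525 and 0.59, in each replicate the highest ratio of the 4 genes. The means were 0.16 ± 0.14 and 0.71 ± 0.27 (SD, n = 3), and the pairs of both diets did not overlap. Within replicate 3, whose LS and HS strain arrays carry 1 title string in common, possibly a batch, the ratio was 0.18 on LS and 0.59 on HS. The other replicates have different strings for the diets, so there a batch and the diet cannot be told apart.

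Pcsk6 was lower on HS in SS, at -0.395, -0.335 and -0.185, with all 6 arrays below 0 (mean -0.305 ± 0.11, SD, n = 3). In strain 13 it stood at 0.095, 0.125 and 0.125. These pair means were the closest replicates of any of the 4 genes in any comparison (SD 0.02), all above 0 and apart from the SS pairs. Its single arrays in strain 13 spread wider, from -0.06 to 0.25. The strain ratio was 0.155, 0.03 and 0.145 on LS (mean 0.11 ± 0.07, SD, n = 3). It was 0.455, 0.32 and 0.545 on HS (mean 0.44 ± 0.11, SD, n = 3), again with no overlap. Replicate 3 alone went from 0.145 on LS to 0.545 on HS. Without the array whose title conflicts, the SS mean was -0.31.

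Alcam averaged -0.255, -0.135 and -0.30 in SS, and -0.02, 0.295 and 0.16 in strain 13. The means were -0.23 ± 0.09 and 0.145 ± 0.16 (SD, n = 3), and the pairs of the strains did not overlap. Strain 13 against SS gave -0.04, 0.03 and -0.07 on LS and 0.295, 0.15 and 0.335 on HS (means -0.03 ± 0.05 and 0.26 ± 0.10, SD, n = 3). These averages hide a wide gap between orientations. Forward arrays in SS had -0.85, -0.62 and -1.04, and dye-swap arrays of the same RNAs 0.34, 0.35 and 0.44. On HS between the strains the forward arrays had -0.40, -0.52 and -0.12 and the dye-swap arrays 0.99, 0.82 and 0.79. The forward arrays of Alcam were below 0 on 12 of 12 and the dye-swap arrays above 0 on 12 of 12, whichever RNAs were compared. Forward arrays averaged -0.84 in SS and -0.21 in strain 13, and dye-swap arrays 0.38 and 0.50. Between the strains the forward mean was -0.28 on LS and -0.35 on HS. The higher ratio on HS therefore came from the dye-swap arrays (0.23 on LS and 0.87 on HS). With the conflicting array left out, replicate 3 of SS has a forward value alone and the mean became -0.48.

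Tmbim6 had -0.68, -0.27 and -0.70 in the RNA pairs of SS, a mean of -0.55 ± 0.24 (SD, n = 3) that was the lowest of the 4 genes. Replicates 1 and 3 there had no value on the dye-swap array, and replicate 2 had -0.68 on the forward and 0.14 on the dye-swap array. Forward values of Tmbim6 were low everywhere, below 0 on 11 of 11 arrays, with a median of -0.61 and a range of -0.89 to -0.18. The forward values of -0.78 in strain 13 (replicate 2) and -0.89 between strains on LS (replicate 3) were lower than any in SS. The dye-swap arrays were above 0 on 7 of 10. In the 9 RNA pairs with both orientations the forward value was the lower in 8.

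In strain 13, where both orientations were present in every pair, Tmbim6 had -0.235, -0.26 and 0.18. The strain ratio was -0.21, -0.295 and -0.345 on LS and -0.11, -0.25 and 0.01 on HS. The means were -0.105 ± 0.25, -0.28 ± 0.07 and -0.12 ± 0.13 (SD, n = 3). On LS the forward array of replicate 1 held no value for it. The pairs of SS lay below those of strain 13 by 0.01 at the closest point (-0.27 against -0.26), and the strain ratios on LS and HS overlapped.

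**Figure D1:**
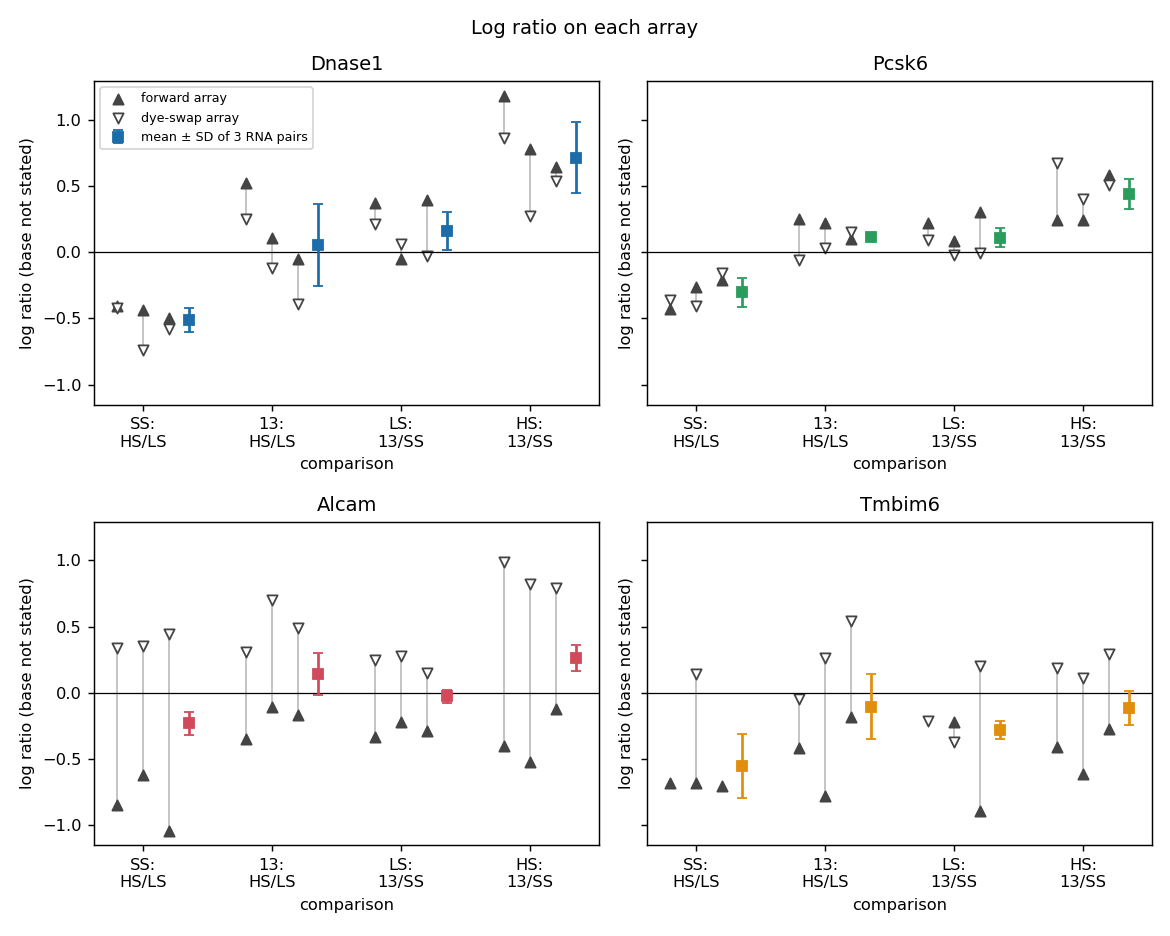
Log ratio (y axis, base not stated) of each gene on forward arrays (filled triangles) and dye-swap arrays (open triangles), a grey line joining arrays of an RNA pair, and mean ± SD of the 3 RNA pairs (squares) for the 4 comparisons. Dnase1 and Pcsk6 have both orientations below 0 in SS and above 0 between strains on HS, Alcam is split by orientation in every comparison, and Tmbim6 lacks 2 dye-swap values in SS.

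In the SS diet comparison 3 of the 4 genes (Dnase1, Pcsk6 and Tmbim6) were past the adjusted threshold of 0.05 as lower, where 0.992% of all probes tested were. In the strain comparison on HS 2 of the 4 (Dnase1 and Pcsk6) were past it as higher, against 3.63% of all probes. These contrasts chose the genes, so the counts are given without reading anything from them. None of the 4 passed in the diet comparison of strain 13 or the strain comparison on LS, where 0.0% of all probes did. Averaged over orientations, the SS diet pairs of Dnase1, Pcsk6 and Alcam all lay below those of strain 13. Their strain ratios on HS all lay above those on LS. Of 1006 probes with a value in every RNA pair, 7.26% met the first of these, 9.24% the second, and 2.09% (21 probes) met both with SS all below 0 and HS all above 0. The SS RNA on HS stands in the SS diet comparison and in the strain comparison on HS, so these are not separate observations. Besides the 3 genes, the 21 included Acsl1, which activates fatty acids, the transaminases Got1 and Bcat2, the monocarboxylate transporter Slc16a7, the glucagon receptor Gcgr, Egf, and Slc12a1, the salt cotransporter of the thick ascending limb, named here after their values were seen.

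Which sign convention the deposited arrays follow matters for Alcam and Tmbim6, since orientation split them. With all values turned to one channel order, 2 differences have to match, namely the gap between the diet ratios of strain 13 and SS (the first value given below) and the gap between the strain ratios on HS and LS (the second). For the mean of both orientations, Dnase1 gave 0.57 and 0.55, Pcsk6 0.42 and 0.33, and Alcam 0.375 and 0.29. The signs match for all 3, but the genes were chosen from these means, so nothing is read from that match. For the difference between orientations (forward minus dye swap, divided by 2), Alcam gave 0.25 and -0.35 and Pcsk6 0.07 and -0.18, of opposite signs, as did Tmbim6 with 0.055 and -0.08. Dnase1 gave 0.075 and 0.08, which match but are small. The 4 genes alone do not settle the convention. For the mean, Tmbim6 gave 0.445 and 0.17 with every pair, and 0.165 and 0.20 with pairs that had both orientations. Across the 548 probes on all arrays the 2 estimates correlated with r = 0.77 for the mean and 0.215 for the difference, where probes are not independent and the comparisons may share RNAs. On these correlations the values were used as already turned, and the split of Alcam and Tmbim6 is described as a dye term, the shift of forward arrays from the mean of both orientations.

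**Figure D2:**
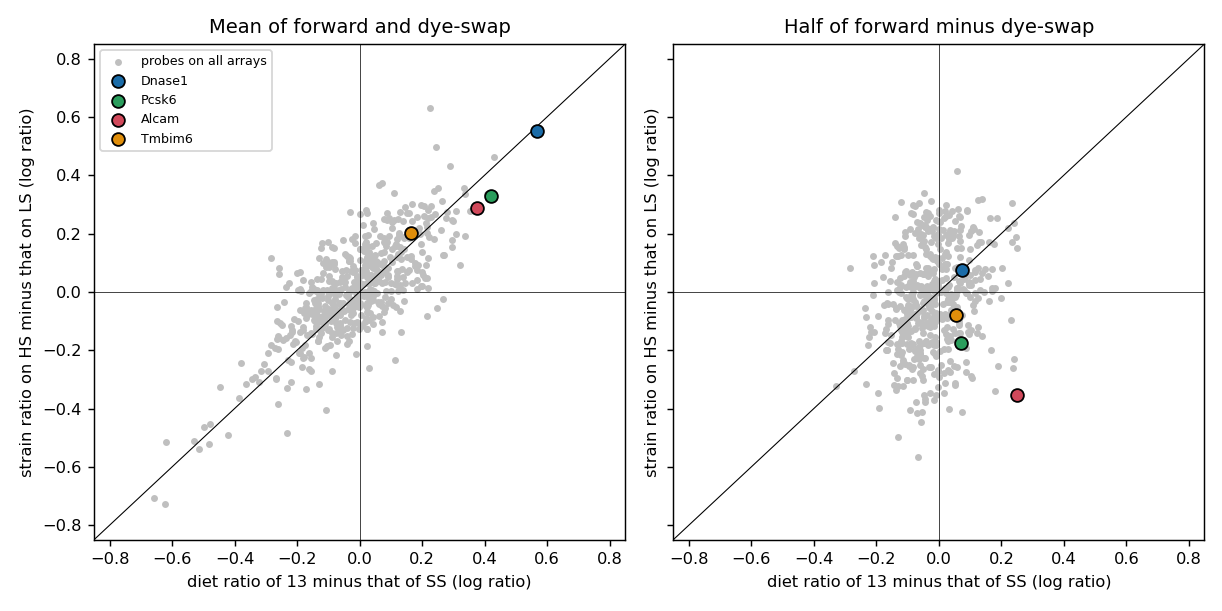
Gap between the diet ratios of strain 13 and SS (x axis) against the gap between the strain ratios on HS and LS (y axis), both as log ratios, for probes on all 24 arrays (grey) and the 4 genes (coloured; pairs with both orientations), from the mean of orientations (left) and their difference divided by 2 (right), with the line of equality. The genes lie near the line on the left (Dnase1 at 0.57 and 0.55) and Alcam lies far from it on the right (0.25 and -0.35).

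A dye term does not depend on the ratios that chose the genes where both orientations are present, and it was tested for every probe in a limma fit to the 24 arrays. It was -0.46 (SE 0.04) for Alcam, with an adjusted p = 1.46e-07, the lowest of 1366 probes, and the rank of its size was 19. The fit takes a single dye term for all comparisons, but the shift of Alcam was not constant. Forward minus dye swap, divided by 2, averaged -0.61 in SS, -0.355 in strain 13, -0.25 between strains on LS and -0.61 on HS. For Tmbim6 that fit also uses the single forward values that chose it. From the 9 RNA pairs with both orientations (18 arrays), a fit added after seeing the data, its dye term was -0.32 (SE 0.06; limma adjusted p = 0.00026 over 1311 probes, of which 37.1% passed). For Dnase1 it was 0.11 (SE 0.05; adjusted p = 0.0613) and for Pcsk6 0.02 (SE 0.03; adjusted p = 0.649), neither past the threshold. Dye terms were common on these arrays, with 37.0% of probes past the threshold and a median size of 0.10, so passing is not particular to Alcam or Tmbim6. Of the 548 probes on all arrays, 0.365% had every forward value below 0 and every dye-swap value above 0. These were 2 probes, Alcam and Hmgb1, a chromatin protein named here after its values were seen. The reverse, with every forward value above 0 and every dye-swap value below 0, held for 3 probes.

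**Figure D3:**
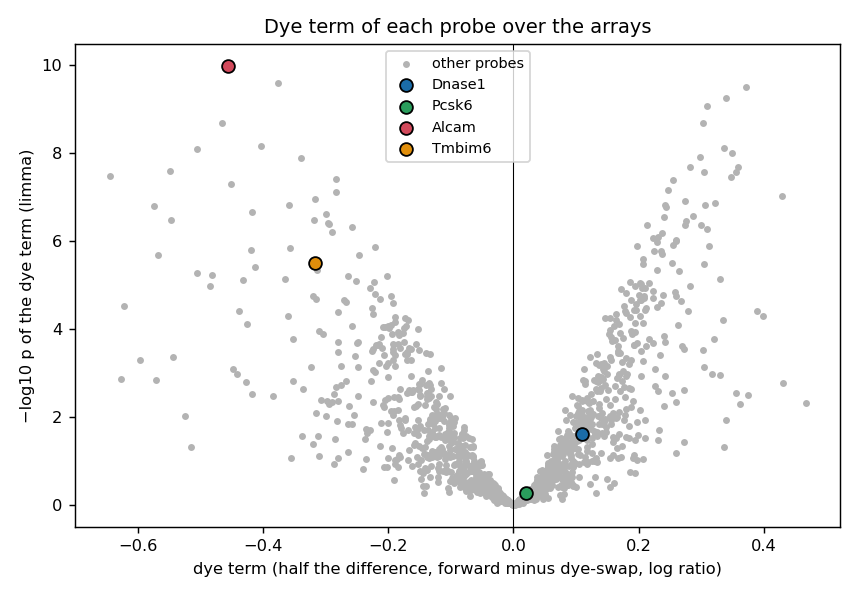
Dye term of each probe (x axis, log ratio) against the negative decimal logarithm of its p from limma (y axis) for 1366 probes (grey), with the 4 genes coloured. Alcam has the highest point at a dye term of -0.46, Tmbim6 lies at -0.32, and Dnase1 (0.11) and Pcsk6 (0.02) lie near the bottom.

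With the dye term in the fit, an alternative added after seeing the data, the SS diet ratio of Tmbim6 was -0.32 (SE 0.12) rather than -0.55 and was no longer past the threshold. Its strain ratio on LS was -0.36 (SE 0.10), so its estimates in SS and between strains on LS differed by less than their SE. The 1 SS pair with both orientations gave -0.27. Dnase1, Pcsk6 and Alcam had both orientations in all 12 pairs, and their estimates stayed at -0.515, -0.305 and -0.23 in SS. Counted this way, 2 of the 4 were past the threshold as lower in SS, against 3.7% of probes. Between strains on HS 3 of the 4 were past it as higher (Alcam added), against 7.17%. Between strains on LS 1 of the 4 was past it as lower (Tmbim6), against 3.34%. The genes were chosen from these ratios, so nothing is read from these counts. This fit counts arrays of an RNA pair nearly as separate samples, so its p-values may be too low. Without the dye term Alcam did not pass on HS. Of the 13 probes called lower in SS, 1, Tmbim6, had 2 pairs with a single orientation, as had 14.3% of all probes tested (2 or 3 such pairs), and 12 of the 13 were called with the dye term.

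Relatives of the 4 genes were read against the shares of all probes called, which were 2.82% in SS (0.992% lower, 1.83% higher) and 6.0% between strains on HS (3.63% higher, 2.37% lower). At these shares a count of 0 in a list of this length is not a result about the list. Of the other 10 tested genes among convertases and their partners, 0 passed in SS (limma; median -0.05, against -0.01 over all probes), where Furin, the best known convertase, had 0.11 ± 0.11, and Pcsk1n, an inhibitor of the convertase Pcsk1, -0.005 ± 0.13. Bmp4 and Igf1, growth factors made as precursors, had -0.30 ± 0.14 and -0.30 ± 0.10 (limma adjusted p = 0.0917 and 0.0992). Between strains on HS 3 of 10 passed as higher and 0 as lower (median 0.14, against 0.02 over all probes). These were Furin at 0.325 ± 0.14, Igf1 at 0.38 ± 0.21 and Pdgfa, a platelet growth factor, at 0.34 ± 0.07 (limma adjusted p = 0.0391, 0.0365 and 0.024; n = 3 for each). Scg5, a chaperone of the convertase Pcsk2, had 0.45 ± 0.12 and an adjusted p = 0.0543. No gene of this list passed in strain 13 (9 tested) or between strains on LS (7 tested). On LS Furin had 0.23, Pdgfa 0.15 and Igf1 -0.05.

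Of 3 other genes listed as nucleases, Dnase1l3, a relative of Dnase1, had 0.02 ± 0.25 in SS and was not tested between strains on HS. Another, Nt5e, is a nucleotidase and had -0.08 ± 0.09 in SS and 0.07 ± 0.23 between strains on HS. Apex1, which cuts DNA in base repair, had -0.02 ± 0.06 in SS and was lower in strain 13 on HS at -0.285 ± 0.08 (limma adjusted p = 0.0249), the sign opposite to that of Dnase1. Between strains on LS Apex1 had -0.21 ± 0.08 and did not pass. Among 16 other adhesion molecules tested in SS, 0 passed (limma; median 0.10), and on HS 0 of 15 (median 0.07). Vcam1, of the same family as Alcam, had 0.11 ± 0.19 in SS and -0.03 ± 0.12 between strains on HS. Of the 4 other genes of cell death, Bad, Casp2, Gadd45a and Cycs, 0 passed in SS or on HS, with values in SS between -0.14 and 0.035. Of genes for folding and stress in the endoplasmic reticulum, where Tmbim6 acts, 0 of 11 passed in SS (limma; median 0.06), with Calr, a calcium-binding chaperone, at 0.11. On HS 1 of 12 passed as higher, the stress-induced factor Ddit3 at 0.355 ± 0.12, and 1 as lower, the calcium channel Itpr2 at -0.58 ± 0.07 (n = 2; limma adjusted p = 0.0328 and 0.032).

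Markers of tubule segments were measured beside the 4 genes. In SS none passed, with 0 of 13 proximal tubule, 0 of 4 thick ascending limb and distal and 0 of 6 collecting duct markers by limma, where 2.82% of all probes were called and 255 had an unadjusted p below 0.05. In SS 10 of 13 proximal tubule markers were below 0 (median -0.12, where 51.6% of all probes were below 0), and the mean of the 12 with a value in every pair was 0.21, -0.29 and -0.30 in replicates 1 to 3. Dnase1 and Pcsk6 were below 0 in replicate 1, where this mean was above 0. Between strains on HS the same mean was -0.67, -0.10 and -0.37, the sign opposite to that of Dnase1, Pcsk6 and Alcam, and 2 of 12 proximal markers passed as lower (Gatm and Cyp2e1), against 2.37% of all probes. Low proximal values were not particular to HS. The proximal mean was -0.26, -0.11 and -0.41 between strains on LS, and -0.17, -0.29 and -0.33 for the diets in strain 13. On LS Gatm had -0.72 and Cyp2e1 -0.51, neither past the threshold. The thick ascending limb and distal markers Slc12a1, Umod, Egf and Pvalb had means of -0.16, -0.17 and -0.10 in SS. There 3 of the 4 were below 0, and Pvalb was above 0 at 0.21. Egf and Umod lay near the threshold in SS (limma adjusted p = 0.0502 and 0.0617). Between strains on HS the means were 0.21, 0.20 and 0.16, and 1 of 4 passed as higher (Egf), against 3.63% of all probes. The 6 collecting duct markers had means of -0.09, -0.06 and -0.09 in SS and 0.31, 0.22 and 0.21 on HS, where 3 of 6 passed as higher (Aqp3, Scnn1a and Fxyd4), against the same 3.63%. The means of these 2 lists had the signs of Dnase1 and Pcsk6 in both comparisons. On LS the collecting duct mean was 0.18, 0.15 and 0.07, and in strain 13 the diets gave 0.002, 0.08 and 0.04. The part of segment composition in the ratios of the 4 genes was not tested.

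**Figure D4:**
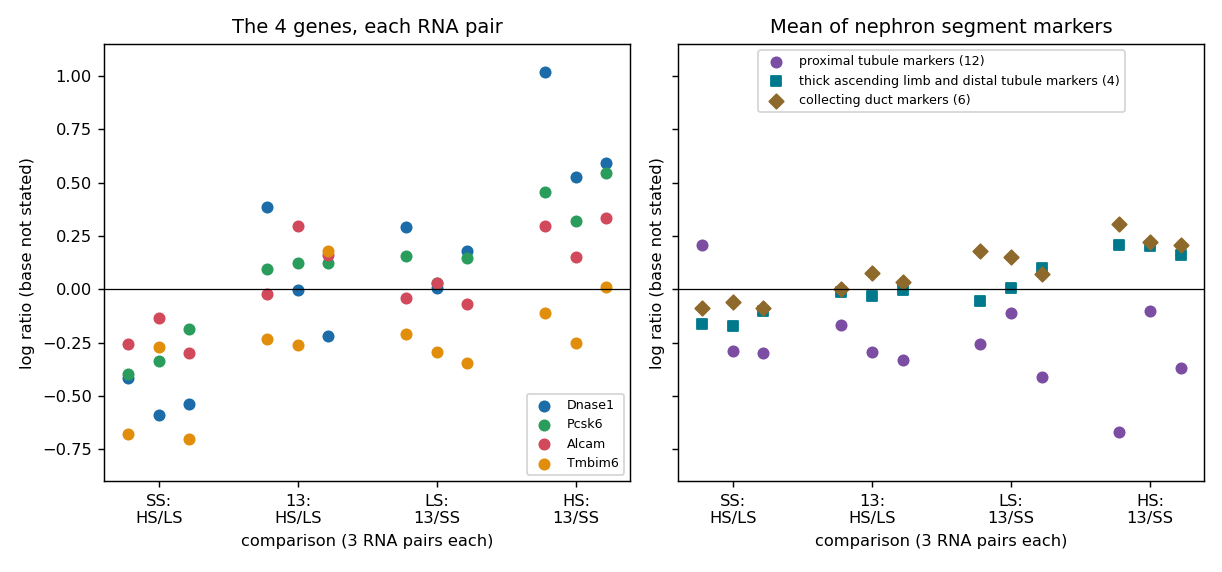
Log ratio (y axis, base not stated) in each of the 3 RNA pairs of the 4 comparisons (x axis), for the 4 genes (left) and for the mean of proximal tubule (12 genes), thick ascending limb and distal (4) and collecting duct (6) markers (right). Proximal markers are above 0 in 1 SS pair (0.21) and below 0 in every other pair of the 4 comparisons, while the distal and collecting duct means are below 0 in SS and above 0 on HS.

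Markers of other cells were also measured in SS. The muscle list held 5 tested markers (median 0.49), of smooth and skeletal muscle except for the cardiac Tnnt2. Of these 0 passed as lower and 2 as higher, against 1.83% of all probes. These were Tagln, which binds actin in smooth muscle cells, at 0.70 ± 0.35 and Tnnt2, cardiac troponin T, at 0.565 ± 0.12 (SD, n = 3; limma adjusted p = 0.0105 for both). Tpm2, Tpm1 and Acta2 of the same list had 0.49, 0.30 and 0.09 and did not pass. No marker of the other cells passed, with 0 of 3 leukocyte markers (median 0.22), 0 of 2 red cell, 0 of 2 fat and 0 of 1 endothelial marker by limma. Between strains on HS 1 of 6 muscle and 1 of 3 leukocyte markers passed as lower, against 2.37% of all probes, and the 1 endothelial marker as higher, against 3.63%. Tnnt2 had -0.48 ± 0.04 and Lyz2, a lysozyme of macrophages, -1.51 ± 0.83 (SD, n = 3; limma adjusted p = 0.0177 and 0.0321). Kdr, a receptor of vascular endothelial growth factor, had 0.315 ± 0.12 (SD, n = 3; limma adjusted p = 0.0241). The part of these cells in the ratios of the 4 genes was not tested.

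Likeness to each gene was measured by Pearson's r over the RNA pairs, with 989 named probes that shared at least 10 pairs with it. Some pairs share RNA and all are ratios, so r describes these arrays. Among the 4 genes themselves r was 0.895 for Dnase1 and Pcsk6, 0.845 for Pcsk6 and Alcam, 0.78 for Alcam and Tmbim6, 0.70 for Dnase1 and Alcam, 0.68 for Pcsk6 and Tmbim6, and 0.49 for Dnase1 and Tmbim6 (12 pairs each). The 4 genes were chosen for alike ratios in these same pairs, so nothing is read from their r with one another. Dnase1 was most like Ppp1r9a, a scaffold for a protein phosphatase (r = 0.95), followed by Acsl1 (0.91), Igf1 (0.90), Fabp3, a fatty acid carrier (0.90), and Pcsk6. Its lowest r was with Tnnt2, cardiac troponin T (-0.96), and Tsc22d1 (-0.95), which had 0.565 and 0.47 in SS and -0.48 and -0.35 between strains on HS.

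Pcsk6 was most like Acsl1 (r = 0.95), then Gstm2, a glutathione transferase (0.94), Isyna1, which makes inositol (0.93), Nr3c1, the glucocorticoid receptor (0.91), and Got1 (0.91). Its lowest were Prkcb, a protein kinase C (-0.89), and Tsc22d1 (-0.89). Alcam was most like Pdgfa (0.92), Aldh1a1, a retinal dehydrogenase (0.88), Got1 (0.85), Ces2c, a carboxylesterase (0.85), and Nr3c1 (0.845), and least like Myl2 (-0.88) and Azin1 (-0.79), both over 11 pairs. Tmbim6 had lower likeness throughout, with Acaa2 of mitochondrial fatty acid oxidation (0.79), Alcam (0.78), Srsf5 (0.78), Rps6kb1 (0.77) and Pdgfa (0.77) at the top and Cyp2e1 (-0.68) and Btg1 (-0.68) at the bottom. Only 9 of the 12 pairs of Tmbim6 had both orientations. In the rest a single orientation entered its r, so a dye shift did not cancel there. Acaa2 itself had -0.10 in SS. Acsl1, near the top for both Dnase1 and Pcsk6, had -0.39 in SS, 0.04 in strain 13, 0.04 on LS and 0.505 on HS, while Nr3c1 had -0.15, 0.13, 0.03 and 0.17.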

How the data were processed

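What the authors deposited is a log ratio of both channels for each probe and array. Its log base is not given in the sources used here, nor are background correction, filters or normalization. Array means lay within 0.0049 of 0, and values were used as deposited. Gene names are those of the platform annotation, brought up to date with RefSeq (GRCr8, names, chromosomes and upstream sequence). The 2 arrays of an RNA pair were averaged. limma 3.58.1 in R 4.3.3 fitted 4 group means to the 12 RNA pairs, each tested against 0 (two-sided), for probes with a value in at least 2 of 3 replicates, with Benjamini-Hochberg adjustment. The dye term came from a fit to the 24 arrays with the RNA pair as a random block, whose correlation was -0.02, so that arrays count nearly as separate samples and its p-values may be too low. Both fits were tested on simulated data. The genes, lists and rules were chosen with earlier results of these data known. Named genes are the 4, their nearest measured relatives, and all list genes past the threshold in the SS diet or HS strain fit. Also named, for each of the 4, are the genes with the 5 highest and 2 lowest correlations. Alternatives varied array scaling, centring, filters, blocks, replicates, orientations and the array with conflicting labels.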

Additional observations from a re-analysis of the deposited data

Results flagged for a closer look

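In SS, Tmbim6 had a value on 4 arrays, and the dye-swap array of replicate 2 stood apart at 0.14 from the forward arrays, which lay between -0.70 and -0.68. The forward array of replicate 1 in the strain comparison on LS held 726 values, apart from the others of its group, and its SD of 0.474 also stood apart. Tmbim6 had no value on that array. Of the 24 sets of arrays examined in this way, chance would single out about 1 in 20.

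For Pcsk6 every RNA pair of strain 13 was above 0 on HS against LS and every pair of SS below 0, a difference of 0.42 between the means. This difference was not tested, because the gene was chosen for it.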

How the results depend on the processing

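Dnase1 and Pcsk6 kept their sign in SS and between strains on HS under every alternative run. Leaving out 1 replicate gave -0.565 to -0.4775 in SS and 0.5575 to 0.805 on HS for Dnase1, -0.365 to -0.26 and 0.3875 to 0.50 for Pcsk6, -0.2775 to -0.195 and 0.2225 to 0.315 for Alcam, and -0.69 to -0.475 and -0.18 to -0.05 for Tmbim6. Forward arrays alone gave Alcam -0.84 in SS and -0.35 on HS, and dye-swap arrays alone 0.38 and 0.87. Tmbim6 had -0.43 on HS by forward arrays, 0.14 in SS and 0.20 on HS by dye-swap arrays, and -0.27 in SS with pairs of both orientations. Without the array of conflicting labels Alcam had -0.48 in SS.

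The count of probes called in SS (37) was 58 for probes in every RNA pair, 118 on forward and 62 on dye-swap arrays alone, 0 with its 3 pairs fitted alone, 60 without the conflicting array, 61 with pairs of both orientations, 124 with the dye term, and 0 to 57 without 1 replicate. In strain 13 (0) it was 15 on forward and 3 on dye-swap arrays and 7 with the dye term. On LS (0) it was 23 with equal spread, 35 for probes in every pair, 70 and 51 by orientation, 3 with pairs of both orientations, 64 with the dye term and 0 to 1 without 1 replicate. On HS (81) it was 13 with equal spread, 127 and 411 by orientation, 0 fitted alone, 191 with the dye term and 0 to 19 without 1 replicate. A dye effect does not cancel in 1 orientation, and the cause of the other changes was not tested.

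With the replicate number as a block the HS count was 40 (30 higher, 10 lower) and the SS count 31. Same-numbered deviations correlated over probes between -0.665 and 0.43, with every value over 0.1 in 1 of 6 pairs of comparisons. Between SS diet and strain on HS, whose ratios hold the salt-loaded SS RNA as numerator and as denominator, they were -0.665, -0.593 and -0.29. Titles name the same SS RNAs in replicate 3 of the SS diet and both strain comparisons, and the fit without the block treats RNA pairs as separate samples although some share RNA. Intensities are not used here, and the number of arrays limits the precision.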
